A study of Homo sapiens with 12 samples.

Results

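The genes described here lie on a stretch of the short arm of chromosome 9 that holds JAK2 and its neighbours CD274 and PDCD1LG2. Members were chosen by position and level: the start lies between 1980290 and 16870843 on chromosome 9 of GRCh38, and the mean over the 6 FaDu libraries is at least 0.5 CPM, where CPM are read counts scaled to the library total. The stretch was selected on the FaDu readout, because it stood raised in resistant FaDu cells, so the FaDu values of its genes are a description and carry no test. The rule gave 40 of the 178 annotated genes of the segment, out of 14362 genes at that level and 58051 in all. Among the 40 genes, 35 code for protein, 4 are long non-coding RNAs and 1, LDHAP4, is a pseudogene. The other 138 genes of the segment were below the level; they include the cytokine gene IL33 (mean of 0.223 CPM in FaDu), the relaxin gene RLN1 (0.341 CPM) and the melanocyte gene MLANA (0.396 CPM).

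RNA was measured in 12 poly(A)-selected libraries from FaDu, a hypopharyngeal squamous carcinoma line, and Cal27, a tongue squamous carcinoma line, with 2 biological replicates in each of 6 groups and a wild-type genotype label throughout. In each line, the parental cells were compared with cells made resistant to afatinib (AfaR), an irreversible inhibitor of the ERBB receptor family, or to erlotinib (ErlR), a reversible EGFR inhibitor. Resistant cells came from stepwise dose escalation, were kept under drug and were cultured without it for a day before experiments, and each resistant model is 1 selected population. The comparison asks how transcription differs between resistant cells and the parental cells they came from.

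JAK2 is a tyrosine kinase that sits on cytokine receptors, including that for interferon gamma, and phosphorylates STAT transcription factors. CD274 codes for PD-L1 and PDCD1LG2 for PD-L2, the ligands of the T cell receptor PD-1, and interferon gamma raises PD-L1 through JAK and STAT signalling. The segment also holds genes of chromatin, RNA, lipid and mitochondrial biology.

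The promoters of CD274 and JAK2 are shown because these 2 genes name the segment and because interferon gamma acts through short DNA elements. Each run is the sequence before the annotated start of the gene, on the plus strand of GRCh38.p14 from RefSeq, at chr9:5450292-5450502 for CD274 and at chr9:4984140-4984389 for JAK2. Capitals mark a GAS element (TTCNNNGAA, bound by STAT dimers) or an interferon regulatory factor element (GAAANNGAAA), searched on both strands with overlapping matches kept.
CD274: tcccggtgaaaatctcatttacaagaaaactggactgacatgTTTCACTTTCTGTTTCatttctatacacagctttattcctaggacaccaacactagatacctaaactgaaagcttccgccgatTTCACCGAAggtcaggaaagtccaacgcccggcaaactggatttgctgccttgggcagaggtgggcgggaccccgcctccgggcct
JAK2: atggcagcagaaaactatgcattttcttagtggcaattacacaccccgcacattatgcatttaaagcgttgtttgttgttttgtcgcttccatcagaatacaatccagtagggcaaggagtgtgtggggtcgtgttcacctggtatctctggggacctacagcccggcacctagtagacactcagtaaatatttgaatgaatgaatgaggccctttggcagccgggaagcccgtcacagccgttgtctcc
In CD274 the GAS match TTCACCGAA lies at chr9:5450417-5450425 and 2 overlapping regulatory factor matches, both on the minus strand, lie at chr9:5450334-5450343 (TTTCACTTTC) and chr9:5450340-5450349 (TTTCTGTTTC), so that the first run of capitals holds both. The JAK2 window held neither. Of 27305 RefSeq promoters, 6.78% held a GAS match and 3.07% the other element in the 250 bases before the start. Promoters were found for 32 of the 40 genes, and besides CD274 only TYRP1 held a GAS match and only NFIB the other. A match is a match of letters and does not show binding.

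Total gene counts ran from 16334937 to 23399259 per library, and all 12 libraries carry the same batch label. The squamous markers KRT5, KRT14, KRT6A, TP63, EPCAM, CDH1 and SFN were all at 1 CPM or more in every FaDu library, and 6 of the 7 were in every Cal27 library. Their summed level was 662 and 538 CPM in the Cal27 AfaR libraries against 4634 and 3352 CPM in the parental and 4693 and 4739 CPM in the ErlR libraries. The sum of the 4 fibroblast markers was 282 and 289 CPM in Cal27 AfaR against 28.8 and 39.8 CPM in the parental cells, and 4.21 and 9.58 CPM in ErlR, with DCN under 1 CPM in every library. The 3 endothelial markers summed to 2.49 and 6.04 CPM in Cal27 ErlR against 31.7 and 32.6 CPM in the parental and 37.3 and 30.04 CPM in the AfaR libraries. The 3 blood cell markers summed to between 2.22 and 4.37 CPM in the FaDu and between 2.38 and 3.85 CPM in the Cal27 libraries. In each line 1 of them was at 1 CPM or more in every library, while CD3E, a T cell marker, stayed under 1 CPM in all 12. The libraries come from cultured carcinoma lines, so these sums describe marker expression in each culture. In bulk RNA, a change in the share of cells that express a marker and a change in its RNA per cell cannot be told apart.

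As a whole, the segment stood higher in both FaDu resistant models and in Cal27 ErlR, and not in Cal27 AfaR. CPM here are scaled by TMM, which corrects for differences in library composition. The summed level of the 40 genes was 1184 and 1276 CPM in the FaDu parental libraries, 1714 and 1728 CPM for AfaR, and 1790 and 1692 CPM in FaDu ErlR. It was 861 and 872 CPM in Cal27 parental, 803 and 769 CPM in Cal27 AfaR, and 1357 and 1369 CPM in Cal27 ErlR. Resistant and parental libraries thus did not overlap in any of the 4 comparisons, and the ratio of means was 1.40 and 1.41 in FaDu AfaR and ErlR, 0.907 for Cal27 AfaR and 1.57 for Cal27 ErlR. The median of the genes' log2 ratios, taken after adding 0.5 CPM to each group mean, was 0.75 in FaDu AfaR and 0.60 in FaDu ErlR, beside 0.01 over all genes in each. For Cal27 AfaR the median was -0.07, beside -0.01 over all genes, and for Cal27 ErlR it was 0.61, beside 0.00. The Cal27 AfaR median was 0.04 without Cal27 parental replicate 2 or without AfaR replicate 2. The plot of summed levels shows each library.

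**Figure D1:**
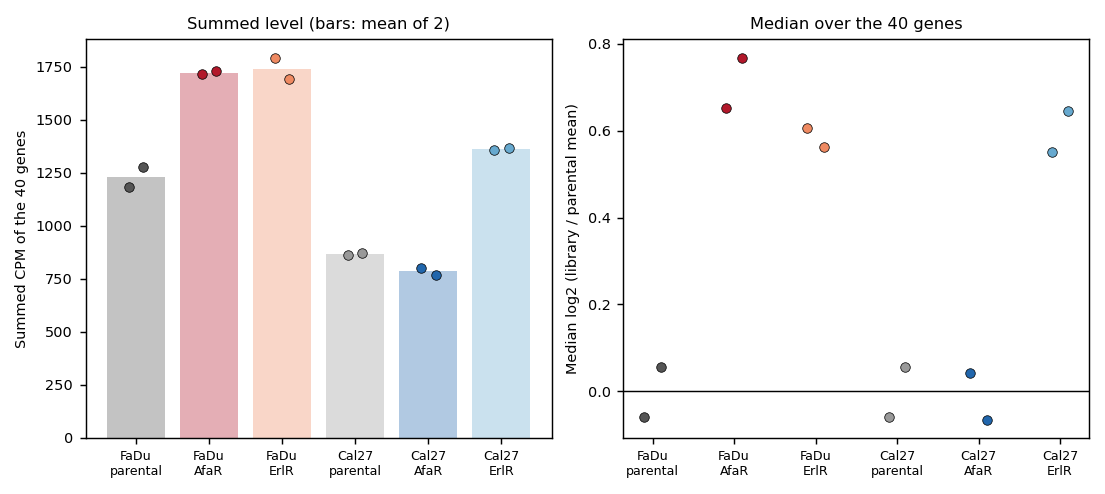
Left, summed TMM-scaled CPM of the 40 genes in each of the 12 libraries (points) with the mean of the 2 replicates (bars); right, the median over the 40 genes of log2 (library over parental mean, 0.5 CPM added). The FaDu resistant libraries lie between 1692 and 1790 CPM, above the parental 1184 and 1276 CPM, and the Cal27 ErlR libraries lie at 1357 and 1369 CPM, above the parental 861 and 872 CPM.

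Gene by gene, both resistant libraries were above both parental libraries for 35 of the 40 genes in FaDu AfaR (33.5% of all genes) and for 32 in FaDu ErlR (28% of all genes). These shares follow from how the segment was chosen, and the FaDu models share their parental libraries. In FaDu AfaR 3 genes lay wholly below the parental libraries, PUM3, RFX3 and LDHAP4, and in FaDu ErlR 0 did, beside 32% and 26.4% of all genes. The corresponding count in Cal27 was 13 above and 13 below in AfaR (35.8% of all genes were above and 36.4% below) and 26 above and 7 below in ErlR (34.5% were above and 33.4% below). Cal27 AfaR therefore held no larger share of raised genes than the rest of the genome, while Cal27 ErlR held 65.0%.

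**Figure D2:**
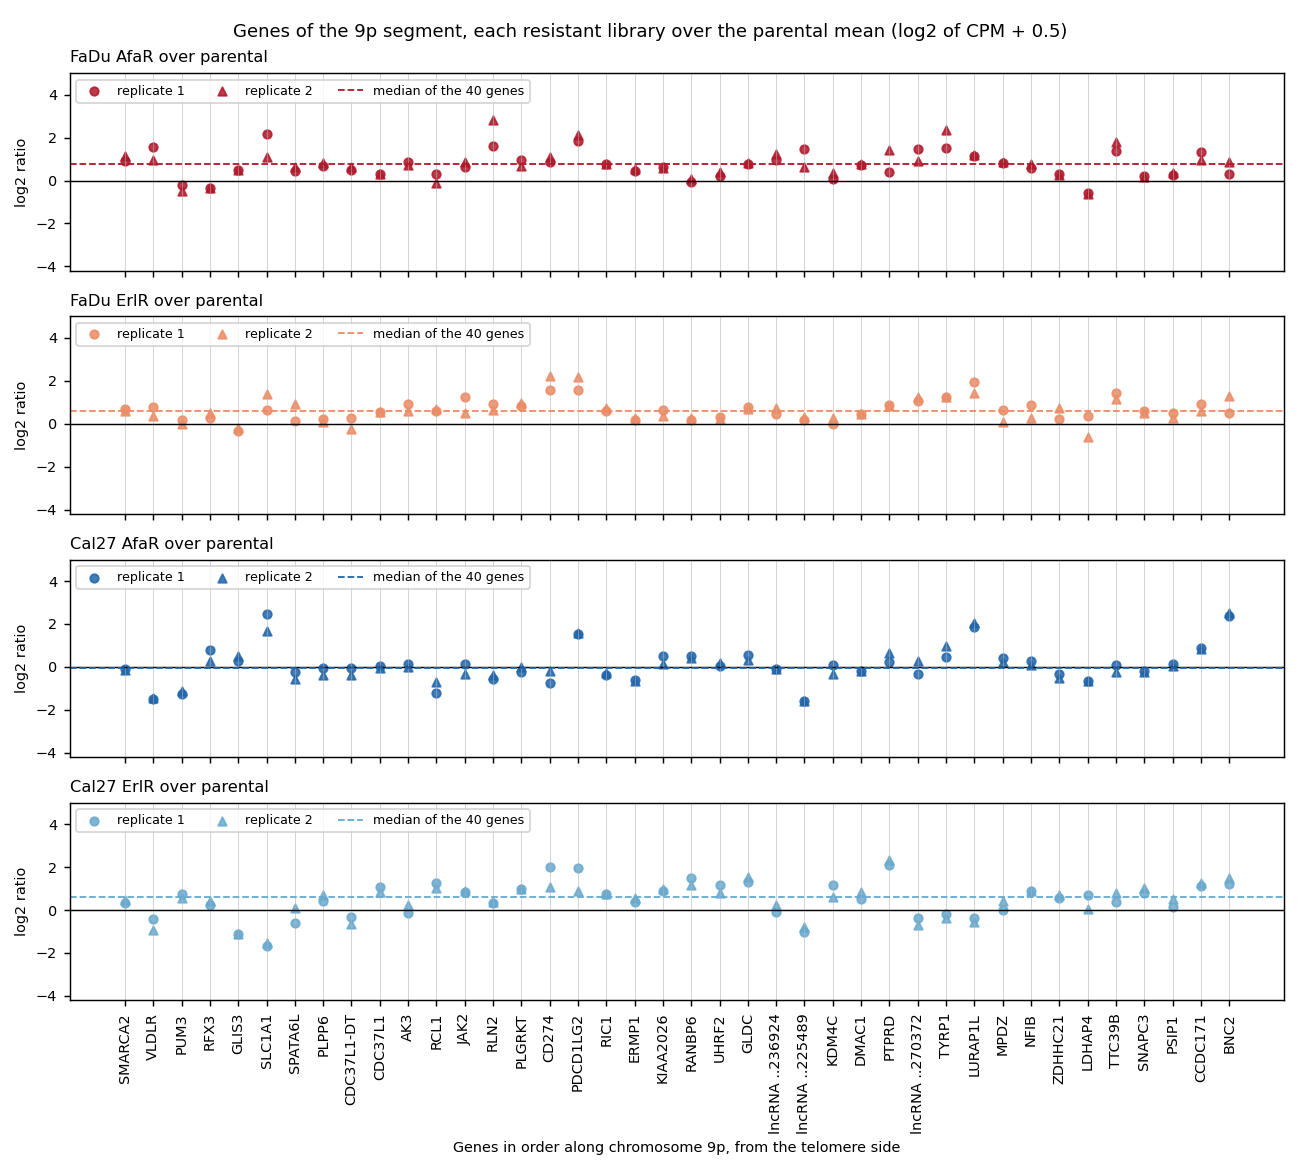
Log2 ratio (CPM + 0.5) of each resistant library over the parental mean for the 40 genes, in their order along 9p, in 4 panels for the 4 comparisons; circles and triangles are replicates 1 and 2, and the dashed line is the median over genes. Most points lie above 0 in both FaDu panels and in Cal27 ErlR, with medians of 0.75, 0.60 and 0.61, whereas Cal27 AfaR scatters around -0.07.

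JAK2 was at 7.47 and 9.09 CPM in the FaDu parental libraries, at 13.0 and 15.6 CPM in AfaR and at 20.4 and 11.8 CPM in ErlR. The resistant libraries all exceeded the parental ones, and the log2 fold change was 0.77 ± 0.26 (SE, n = 2 per group) in AfaR and 0.95 ± 0.26 in ErlR. In Cal27 the level of JAK2 was 9.25 and 8.28 CPM in the parental, 9.82 and 6.96 CPM in the AfaR and 16.0 and 16.4 CPM in the ErlR libraries. Cal27 AfaR overlapped the parental cells (log2 fold change -0.06 ± 0.22, edgeR quasi-likelihood test, Benjamini-Hochberg adjusted p = 0.859), whereas JAK2 rose in Cal27 ErlR (0.86 ± 0.22, adjusted p = 0.0187). That call was lost when Cal27 parental replicate 2 or Cal27 ErlR replicate 1 was left out, with a largest adjusted p of 0.0827.

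CD274, coding for PD-L1, read 5.48 and 8.05 CPM in FaDu parental, 12.9 and 15.1 CPM in AfaR and 21.4 and 33.4 CPM in ErlR. The ErlR libraries were the highest of the 6, at a log2 fold change of 2.01 ± 0.26, and AfaR stood between them and the parental cells at 1.03 ± 0.26. In Cal27, CD274 was at 10.9 and 13.0 CPM in the parental, 6.91 and 10.3 CPM in the AfaR and 49.5 and 25.7 CPM in the ErlR libraries. CD274 rose in Cal27 ErlR (1.63 ± 0.31, edgeR adjusted p = 0.00494) and kept an adjusted p of at most 0.0229 in each of the 6 fits that left out a library. Both AfaR libraries were below both parental libraries, but the difference did not pass the test (-0.48 ± 0.32, adjusted p = 0.267).

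PDCD1LG2, coding for PD-L2, was the PD-1 ligand gene with higher levels in all 4 resistant models. It was at 1.16 and 0.935 CPM in FaDu parental, 5.04 and 6.29 CPM in AfaR and 4.09 and 6.53 CPM in ErlR. The log2 fold changes were 2.40 ± 0.35 and 2.32 ± 0.35, and no resistant library overlapped a parental one. In Cal27 the readings were 3.67 and 2.21 CPM in the parental, 9.60 and 9.86 CPM in the AfaR and 12.9 and 5.80 CPM in the ErlR libraries. Both differences passed the test (AfaR 1.73 ± 0.39, edgeR adjusted p = 0.00764; ErlR 1.64 ± 0.40, adjusted p = 0.0144), and the ErlR call was lost without Cal27 parental replicate 2 or Cal27 ErlR replicate 1 (largest adjusted p = 0.0963). Per kilobase of annotated exon, CD274 was the highest of the 3 genes in 5 of the 6 groups: 1.65 CPM per kb in FaDu parental against 1.34 for JAK2 and 0.444 for PDCD1LG2, and 9.16 in Cal27 ErlR against 2.62 and 3.95. In Cal27 AfaR PDCD1LG2 was the highest at 4.11 CPM per kb, against 2.10 for CD274 and 1.36 for JAK2.

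**Figure D3:**
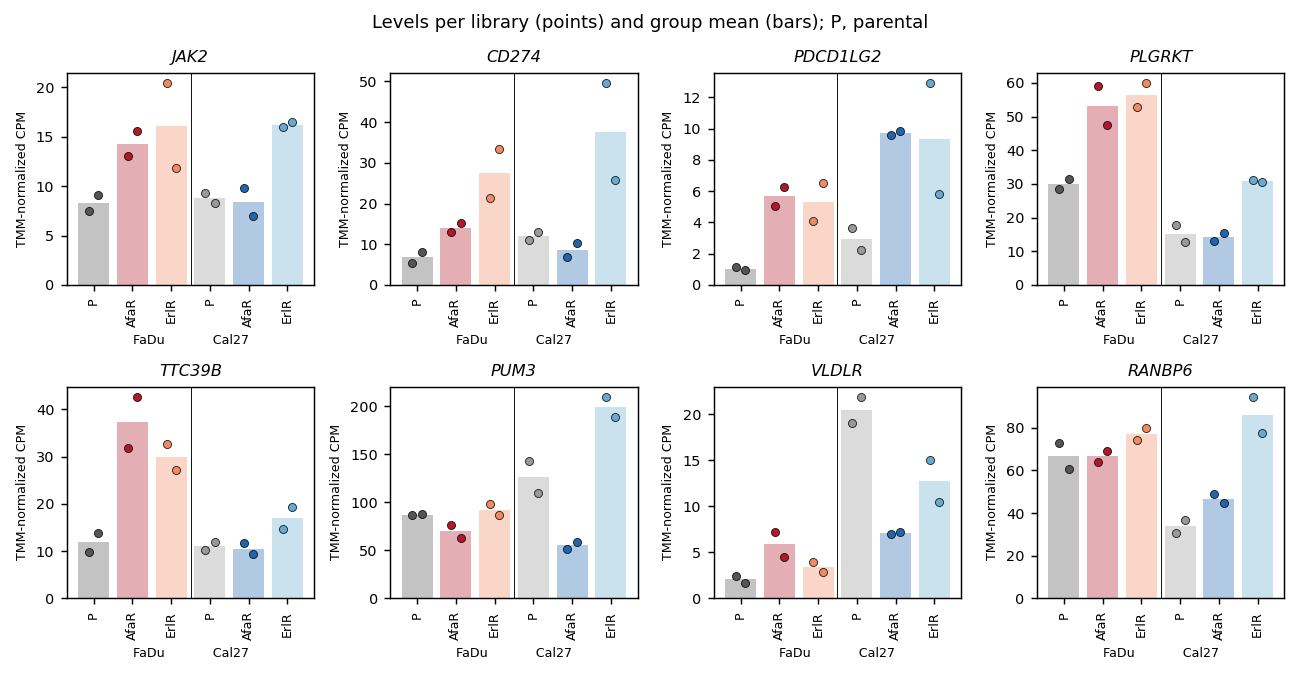
TMM-scaled CPM of 8 genes of the segment in each library (points) with group means (bars), for parental (P), AfaR and ErlR cells of FaDu (left of the line) and Cal27 (right). CD274 reads between 21.4 and 33.4 CPM in FaDu ErlR and between 25.7 and 49.5 CPM in Cal27 ErlR, while PUM3 and VLDLR lie below the parental libraries in Cal27 AfaR.

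RLN2, a relaxin hormone gene between JAK2 and CD274, was nearly silent in FaDu parental cells, with 3 reads over both libraries. FaDu AfaR held 112 reads and FaDu ErlR 15, ratios of 33.1 (95% counting interval 11.0 to 163) and 6.44 (1.82 to 34.7) after scaling. RLN2 reached the level of the rule through its AfaR libraries (means of 0.0745 CPM in parental, 2.40 CPM in AfaR and 0.483 CPM in ErlR), so these ratios describe values that chose the gene and are no test, and the intervals cover counting error only. PLGRKT, a plasminogen receptor gene that lies between RLN2 and CD274, read 28.4 and 31.6 CPM in FaDu parental, 59.0 and 47.6 CPM in AfaR and 53.0 and 59.9 CPM in ErlR. Its resistant libraries were all above the parental ones (0.81 ± 0.15 and 0.90 ± 0.15), and in Cal27 it rose in ErlR (0.99 ± 0.19, edgeR adjusted p = 0.00548) from 17.8 and 12.8 CPM to 31.1 and 30.6 CPM.

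Of 11 genes of chromatin and transcription, 7 rose and 1 fell in Cal27 ErlR by the edgeR test, where 12.3% of all genes tested rose and 15.3% fell. In Cal27 AfaR 2 rose and 0 fell, where 19.5% of all genes tested rose and 18.2% fell, so the share that rose was near the background. SMARCA2, the BRM ATPase of SWI/SNF remodelling complexes, read 28.7 and 22.1 CPM in FaDu parental, 47.9 and 57.2 CPM in AfaR and 41.2 and 38.3 CPM in ErlR. Its log2 fold changes, 1.03 ± 0.16 and 0.63 ± 0.16, were above those of the histone demethylase gene KDM4C (0.20 ± 0.18 and 0.12 ± 0.18) and of UHRF2, a ubiquitin ligase that binds modified DNA (0.29 ± 0.13 and 0.26 ± 0.13). KDM4C shares 3271 exon bases with an overlapping gene on the same strand, so its counts are uncertain, and its Cal27 ErlR call given next was lost without Cal27 parental replicate 1 or ErlR replicate 1 (largest adjusted p = 0.157). In Cal27 ErlR the order was another: UHRF2 rose by 0.98 ± 0.16 (edgeR adjusted p = 0.00266) and KDM4C by 0.93 ± 0.25 (adjusted p = 0.0232), while SMARCA2 did not pass (0.38 ± 0.13, adjusted p = 0.0566).

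NFIB, a nuclear factor I transcription factor, read 37.9 and 35.9 CPM in FaDu parental, 56.0 and 64.0 CPM in AfaR and 68.7 and 44.3 CPM in ErlR. Every resistant library was higher than both parental ones, and in Cal27 NFIB rose in ErlR (0.88 ± 0.13, edgeR adjusted p = 0.00186; AfaR 0.17 ± 0.13, adjusted p = 0.337). KIAA2026 (0.93 ± 0.17, adjusted p = 0.00424) and SNAPC3, a subunit of the complex that starts small nuclear RNA transcription (0.90 ± 0.14, adjusted p = 0.00208), also rose in Cal27 ErlR. PSIP1 codes for the chromatin-bound coactivator LEDGF. Among the members of the segment, it was the most expressed per kilobase in FaDu parental cells (33.8 CPM per kb). PSIP1 did not pass in either Cal27 model (ErlR 0.31 ± 0.14, edgeR adjusted p = 0.137). In FaDu it read 217 and 240 CPM in the parental, 274 and 292 CPM in the AfaR and 328 and 278 CPM in the ErlR libraries. SNAPC3 and PSIP1 share 140 exon bases on opposite strands, and whether the counting used strand is not given in the sources used here.

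BNC2, a zinc finger gene at the proximal end, was at 0.524 and 1.40 CPM in Cal27 parental, 7.12 and 7.94 CPM in AfaR and 2.94 and 3.60 CPM in ErlR. It rose in both (AfaR 2.96 ± 0.42, edgeR adjusted p = 0.000641; ErlR 1.73 ± 0.43, adjusted p = 0.0164), and the ErlR call was lost without Cal27 parental replicate 1 (adjusted p = 0.0587). GLIS3, a Krüppel-like zinc finger gene, was at 8.79 and 10.4 CPM in Cal27 parental and at 4.15 and 4.21 CPM in ErlR, a fall with a log2 fold change of -1.22 ± 0.23 (adjusted p = 0.00459). In FaDu, GLIS3 was near the level limit of the rule, with log2 fold changes of 0.87 ± 0.54 in AfaR and -0.64 ± 0.66 in ErlR. It reached that limit through its AfaR libraries (means of 0.457 CPM in parental, 0.844 CPM in AfaR and 0.291 CPM in ErlR). RFX3, a regulator of cilia genes, read 2.62 and 1.92 CPM in FaDu parental, 1.70 and 1.64 CPM in AfaR and 2.88 and 3.40 CPM in ErlR, so that the AfaR libraries were below and the ErlR libraries above the parental ones.

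RANBP6, an importin family gene, is a highly expressed member that was not raised in FaDu AfaR. It read 72.6 and 60.7 CPM in FaDu parental, 64.1 and 69.3 CPM in AfaR and 74.4 and 80.0 CPM in ErlR, with log2 fold changes of -0.02 ± 0.12 and 0.20 ± 0.12. In Cal27 it rose from 30.5 and 37.0 CPM to 94.6 and 77.5 CPM in ErlR (1.33 ± 0.16, edgeR adjusted p = 0.000617). The AfaR difference in Cal27 also passed (0.47 ± 0.16, adjusted p = 0.0403), but was lost when Cal27 parental replicate 1 or either AfaR library was left out (largest adjusted p = 0.257), under ERCC scaling and with the replicate block.

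PUM3 and RCL1 act in RNA binding and ribosome assembly. PUM3 was at 143 and 109.5 CPM in Cal27 parental, 51.7 and 58.6 CPM in AfaR and 210.2 and 189 CPM in ErlR. It fell in AfaR (-1.19 ± 0.16, edgeR adjusted p = 0.000444) and rose in ErlR (0.64 ± 0.15, adjusted p = 0.0147), the latter call being lost without Cal27 parental replicate 2 or ErlR replicate 1 (largest adjusted p = 0.125). RCL1 read 27.1 and 21.2 CPM in Cal27 parental, 10.2 and 14.6 CPM in AfaR and 58.4 and 49.2 CPM in ErlR. Again the gene fell in AfaR (-0.96 ± 0.21, adjusted p = 0.00607, and 0.0617 without AfaR replicate 1) and rose in ErlR (1.13 ± 0.20, adjusted p = 0.00365). In FaDu, PUM3 read 87.0 and 87.6 CPM in the parental, 76.7 and 62.8 CPM in the AfaR and 98.3 and 86.6 CPM in the ErlR libraries, the lowest ratio in AfaR among members with a mean of at least 5 CPM.

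Of 6 genes of metabolism and mitochondria, 3 rose in Cal27 ErlR, where 12.3% of all genes rose, and 1 fell in Cal27 AfaR, a share near the 18.2% of all genes that fell. AK3, a mitochondrial adenylate kinase, was at 119 and 116 CPM in FaDu parental, 215 and 195 CPM in AfaR and 219.7 and 178 CPM in ErlR (0.79 ± 0.13 and 0.75 ± 0.13). AK3 did not pass in Cal27 ErlR, where the log2 fold change was 0.03 ± 0.17 (edgeR adjusted p = 0.924). GLDC, the glycine cleavage enzyme, read 6.35 and 8.41 CPM in FaDu parental, 12.7 and 13.5 CPM in AfaR and 13.1 and 12.0 CPM in ErlR. In Cal27 GLDC was at 0.233 and 0.117 CPM in the parental and 1.15 and 1.47 CPM in the ErlR libraries (2.83 ± 0.64, adjusted p = 0.00990), a call lost without Cal27 parental replicate 2 or ErlR replicate 2. DMAC1, an assembly factor of respiratory complex I, rose in Cal27 ErlR (0.67 ± 0.14, adjusted p = 0.00842, and 0.0520 without Cal27 parental replicate 2).

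TTC39B, a regulator of lipid metabolism, had the largest AfaR ratio in FaDu after TYRP1 among members at 5 CPM or more. It read 9.75 and 13.9 CPM in FaDu parental, 31.8 and 42.7 CPM in AfaR and 32.6 and 27.2 CPM in ErlR. The log2 fold changes were 1.64 ± 0.21 and 1.33 ± 0.21, against -0.08 ± 0.22 in Cal27 AfaR and 0.59 ± 0.22 in Cal27 ErlR, neither of which passed (edgeR adjusted p = 0.799 and 0.0744). PLPP6, a lipid phosphatase that shares 313 exon bases with SPATA6L on the opposite strand, was higher in FaDu AfaR (0.75 ± 0.15) than in FaDu ErlR (0.14 ± 0.16). ERMP1, a peptidase of the endoplasmic reticulum, fell in Cal27 AfaR (-0.64 ± 0.13, adjusted p = 0.00471) and rose in Cal27 ErlR (0.44 ± 0.13, adjusted p = 0.0320). The second of these was lost under upper-quartile scaling, the replicate block and each omission of a Cal27 parental or ErlR library (largest adjusted p = 0.147).

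Of 9 genes of receptors, transport and membranes, 8 could be tested in Cal27, where 5 rose and 2 fell in ErlR and 1 rose and 1 fell in AfaR. Over all genes tested 12.3% rose and 15.3% fell in ErlR, and 19.5% and 18.2% in AfaR, so the AfaR counts were not above the background. VLDLR, a lipoprotein receptor, stood higher in the FaDu resistant libraries and lower in those of Cal27. It read 2.47 and 1.71 CPM in FaDu parental, 7.22 and 4.52 CPM in AfaR and 3.96 and 2.81 CPM in ErlR. In Cal27 it was at 19.0 and 21.9 CPM in the parental, 7.01 and 7.25 CPM in the AfaR and 15.1 and 10.5 CPM in the ErlR libraries. VLDLR fell in Cal27 AfaR (-1.52 ± 0.22, edgeR adjusted p = 0.000731), while its difference in ErlR (-0.71 ± 0.21, adjusted p = 0.0356) passed and was lost in 5 of the 6 fits that left out a library, under ERCC scaling, under DESeq2 and with 4 or 12 libraries in the fit. SLC1A1, a glutamate transporter, was at 0.524 and 2.10 CPM in Cal27 parental and 9.5 and 5.28 CPM in AfaR (2.49 ± 0.55, adjusted p = 0.00665, and 0.0702 without AfaR replicate 1). In Cal27 ErlR it held 3 reads against 45 in the parental cells, 14-fold lower (95% counting interval 4.49 to 70.4), and the call (adjusted p = 0.0173) was lost without Cal27 parental replicate 2 or ErlR replicate 1.

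RIC1, which acts in Golgi traffic, read 37.5 and 40.9 CPM in FaDu parental, 68.2 and 67.7 CPM in AfaR and 59.99 and 64.7 CPM in ErlR. RIC1 rose in Cal27 ErlR (0.73 ± 0.14, edgeR adjusted p = 0.00452), as did the HSP90 partner CDC37L1 (0.98 ± 0.21, adjusted p = 0.00821) and the palmitoyltransferase ZDHHC21 (0.61 ± 0.16, adjusted p = 0.0201). RIC1 and ERMP1 share 286 exon bases on opposite strands, and ZDHHC21 lost its call without either Cal27 parental library or ErlR replicate 2 (largest adjusted p = 0.0820). PTPRD, a receptor tyrosine phosphatase, was at 0.466 and 0.408 CPM in Cal27 parental and 3.57 and 4.15 CPM in Cal27 ErlR. Its log2 fold change of 3.10 ± 0.45 (adjusted p = 0.00148) was the largest among the members called higher there. MPDZ, a scaffold with many PDZ domains, did not pass in either Cal27 model (adjusted p = 0.174 and 0.372) and stood higher in FaDu AfaR (0.82 ± 0.18) than in FaDu ErlR (0.37 ± 0.18).

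TYRP1, an enzyme of melanin synthesis, read 1.36 and 2.96 CPM in FaDu parental, 7.03 and 13.2 CPM in AfaR and 5.75 and 5.81 CPM in ErlR. Of the other melanocyte markers, MLANA and DCT stayed under 1 CPM in every FaDu library, while PMEL reached 1 CPM in some of them. With TYRP1, the 4 markers summed to 3.54 and 5.19 CPM in FaDu parental, 11.8 and 17.6 CPM in AfaR and 6.84 and 7.38 CPM in ErlR. TYRP1 was too low to be tested in Cal27. LURAP1L, an adaptor gene, rose in Cal27 AfaR from 4.48 and 3.44 CPM to 15.4 and 17.8 CPM (2.07 ± 0.25, edgeR adjusted p = 0.000244) and was raised in FaDu (1.64 ± 0.38 and 2.27 ± 0.38). CCDC171 passed in Cal27 AfaR (1.14 ± 0.37, adjusted p = 0.0356) and ErlR (1.49 ± 0.37, adjusted p = 0.0155), the first lost without any of the 4 libraries compared and under DESeq2 and the replicate block, the second lost without Cal27 parental replicate 2 (adjusted p = 0.0971). SPATA6L did not pass in Cal27 (adjusted p = 0.435 and 0.714).

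The non-coding members were all low. ENSG00000225489 read 1.94 and 2.13 CPM in FaDu parental, 6.45 and 3.45 CPM in AfaR and 2.36 and 2.68 CPM in ErlR. In Cal27 it held 35 reads in the parental and 0 in the AfaR libraries, at least 12.2-fold lower with a floor of 3 reads over the group (edgeR adjusted p = 0.00224). ENSG00000236924 and ENSG00000270372 were higher in FaDu AfaR (1.48 ± 0.43 and 2.12 ± 0.53) and FaDu ErlR (0.85 ± 0.45 and 2.03 ± 0.54). CDC37L1-DT, at the level limit, had values of 1.04 ± 0.55 and 0.05 ± 0.62, and these 3 were too low to be tested in Cal27. ENSG00000270372 reached the level of the rule through its resistant libraries (means of 0.303 CPM in FaDu parental, 1.36 CPM in AfaR and 1.26 CPM in ErlR). CDC37L1-DT reached it through AfaR (0.400, 0.840 and 0.418 CPM). The FaDu values of both are thus among those that chose them and are no test. LDHAP4 was at 0.922 and 0.987 CPM in FaDu parental, 0.485 and 0.452 CPM in AfaR and 1.34 and 0.457 CPM in ErlR.

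Counted together, 36 of the 40 genes passed the filter on low counts in Cal27. In Cal27 ErlR 21 of them (58.3%) were called higher, beside 12.3% of all genes tested, and 3 lower (VLDLR, GLIS3 and SLC1A1), beside 15.3%. Without Cal27 parental replicate 2 the counts were 13 and 1. Of the 24 calls, 12 held in each of the 6 fits that left out a library: GLIS3, CDC37L1, RCL1, PLGRKT, CD274, RIC1, KIAA2026, RANBP6, UHRF2, PTPRD, NFIB and SNAPC3. In Cal27 AfaR 6 were called higher (SLC1A1, PDCD1LG2, RANBP6, LURAP1L, CCDC171 and BNC2), beside 19.5% of all genes tested, and 5 lower (VLDLR, PUM3, RCL1, ERMP1 and ENSG00000225489), beside 18.2%. Without Cal27 AfaR replicate 1 the count called higher was 3. The lower squamous and higher fibroblast marker levels given above go with the Cal27 AfaR libraries, and the lower fibroblast and endothelial marker levels with those of Cal27 ErlR; their part in these calls was not tested. All p-values rest on 2 libraries per group.

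**Figure D4:**
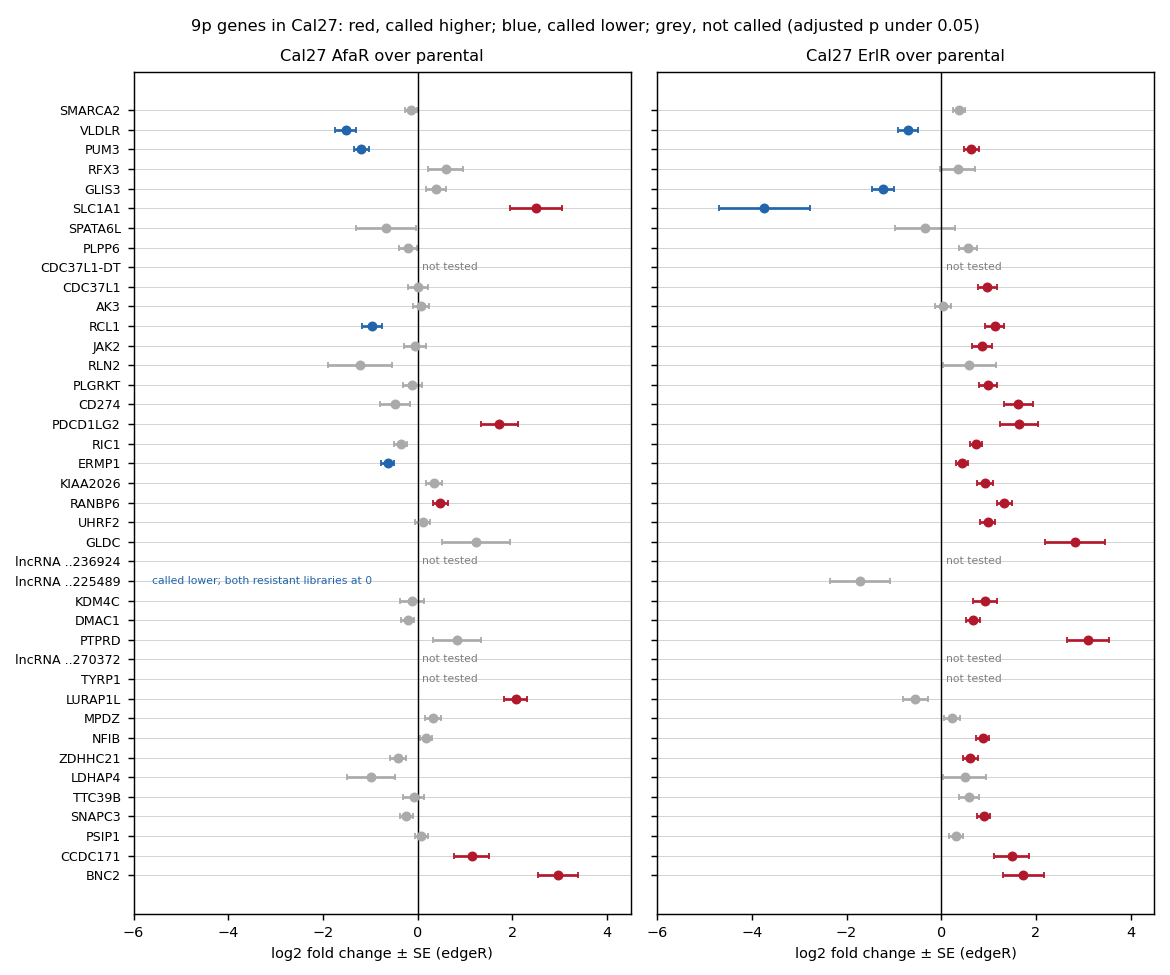
Log2 fold change with its standard error (edgeR) for the segment genes in Cal27 AfaR (left) and Cal27 ErlR (right) over parental cells; red points were called higher, blue lower and grey neither, at an adjusted p under 0.05. In ErlR 21 of 36 tested genes are red and 3 blue, in AfaR 6 are red and 5 blue.

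FaDu ErlR and Cal27 ErlR share no library. Of the genes of the segment, 23 stood above the parental libraries in both, which is 71.9% of the 32 in FaDu ErlR and 88.5% of the 26 in Cal27 ErlR. Of all 40 genes, 65% were above in Cal27 ErlR and 80% in FaDu ErlR, so both shares lay near those of the members as a whole. The FaDu share follows from the choice of the segment, and the share of all genes above in both models was not taken. The sizes were only loosely alike: over the 40 genes the log2 ratios of the 2 models had a Spearman rho of 0.19 and a Pearson r of 0.18, a description over genes that are not independent. Members at 5 CPM or more in FaDu had a median of 0.85 in Cal27 ErlR, where 18 of 24 tested were called higher and 0 lower (edgeR). Members under 5 CPM had a median of -0.21, with 3 of 12 higher and 3 lower. Over all genes tested in Cal27 ErlR, 12.3% were called higher and 15.3% lower.

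Along the segment, the genes were taken in 4 blocks divided at 4.3, 7.2 and 14 Mb. The medians of log2 ratios in FaDu AfaR, in order from the telomere side, were 0.49, 0.75, 1.09 and 0.45. In FaDu ErlR they were 0.39, 0.61, 0.98 and 0.57. The third block, DMAC1 to MPDZ, was thus the highest in both FaDu models, though it holds only 6 genes. Among them, PTPRD and ENSG00000270372 reached the level of the rule only through FaDu resistant libraries. PTPRD had means of 0.274 CPM in FaDu parental, 1.05 CPM in AfaR and 0.872 CPM in ErlR. The FaDu medians of this block therefore rest in part on values that chose its genes and are no test. In Cal27 ErlR that same block had the lowest median at -0.02, beside 0.35, 0.85 and 0.76 for the first, the second and the last. This median includes TYRP1 and ENSG00000270372, which were under 1 CPM in Cal27 parental and ErlR cells and were not tested. Of the 4 genes of the block that were tested, 2 were called higher and 0 lower (edgeR), beside 12.3% and 15.3% of all genes. Cal27 AfaR gave -0.14, -0.11, 0.39 and 0.00.

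Beyond the segment, FaDu and Cal27 ErlR differed on the proximal side and on the rest of chromosome 9. The proximal flank, from CNTLN to the genes before 39 Mb, had medians of 0.04 and 0.04 over 101 genes in FaDu AfaR and ErlR. In Cal27 ErlR its median over 107 genes was 0.59, with 57 called higher (53.3%) and 4 lower (3.74%) by edgeR. Over all genes tested there, 12.3% were called higher and 15.3% lower. The distal flank had a median of 0.62 over 6 genes in Cal27 ErlR, and was also positive over 4 genes in FaDu AfaR (0.31) and ErlR (0.40). The rest of chromosome 9 stood at -0.35 over 453 genes in Cal27 ErlR, against 0.11 and 0.14 over 429 genes in FaDu AfaR and ErlR. Of 452 tested in Cal27 ErlR, 6 were called higher (1.33%) and 161 lower (35.6%), beside the same 12.3% and 15.3%. In Cal27 ErlR both flanks thus had medians close to the 0.61 of the segment itself. Whether the 2 lines differ in extent was described by these medians and counts and was not tested.

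**Figure D5:**
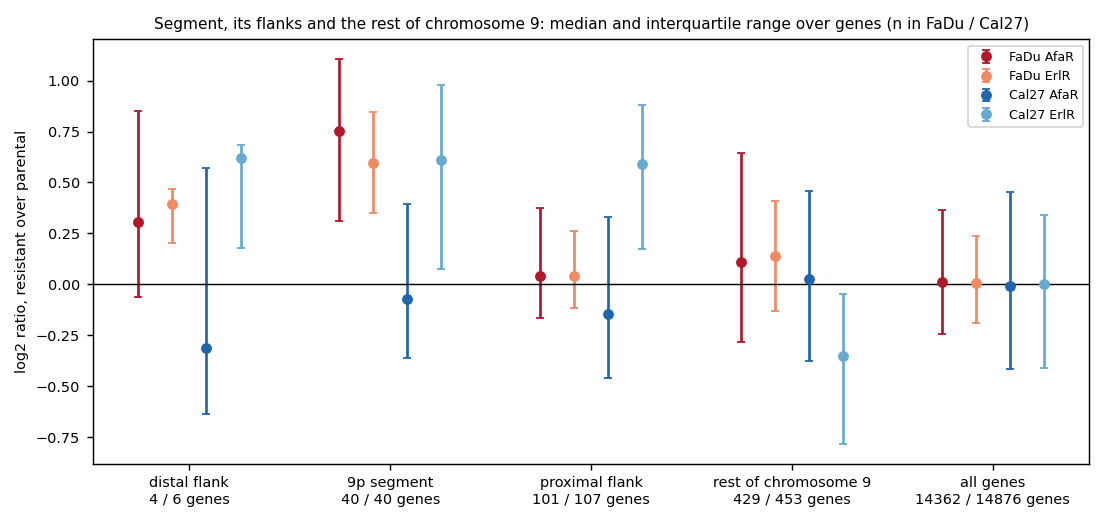
Median and interquartile range over genes of the log2 ratio of resistant over parental cells, for the distal flank, the 9p segment, the proximal flank, the rest of chromosome 9 and all genes, in the 4 comparisons; gene numbers are given for FaDu and Cal27. The FaDu medians fall from 0.75 and 0.60 in the segment to 0.04 in the proximal flank, while Cal27 ErlR stays at 0.59 there and falls to -0.35 on the rest of the chromosome.

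At its bounds the rule divides a continuous series of values. The outermost members were SMARCA2 and VLDLR on the distal side (log2 ratios of 1.04 and 1.30 in FaDu AfaR) and BNC2 and CCDC171 on the proximal side (0.59 and 1.14). BNC2 reached the level of the rule only through FaDu resistant libraries (means of 0.306 CPM in parental, 0.715 CPM in AfaR and 1.07 CPM in ErlR). Its FaDu ratio is thus among the values that chose it and is no test. Just outside lie KANK1 and DOCK8 (0.60 and 1.60) and CNTLN and SH3GL2 (0.74 and 2.83), which were also positive in FaDu ErlR at 0.46, 0.49, 0.38 and 1.11. On level, GLIS3 (0.525 CPM) and CDC37L1-DT (0.547 CPM) lay just inside, and ENSG00000234740 (0.487 CPM) and RPL4P5 (0.486 CPM) just outside.

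JAK2 and PD-L1 act with partners coded elsewhere, and 43 such genes were examined: cytokine receptors and kinases, STAT and IRF factors, negative regulators, PD-L1 partners and interferon gamma targets. In FaDu AfaR 6 of 42 tested were called higher (IL6R, STAT2, GBP1, TAP1, PSMB9 and CIITA), beside 10.4% of all genes. There, 2 were called lower (SOCS2 and CMTM6), beside 7.5% of all genes. Both shares of the list were near those of all genes. The interferon gamma target GBP1 rose from a mean of 12.8 ± 7.99 (SD, n = 2) to 57.0 ± 21.4 CPM, and TAP1, which loads peptides for MHC class I, from 49.9 ± 12.4 to 112 ± 16.2 CPM. These counts depended on which libraries were kept: 0 were called higher and 0 lower without FaDu parental replicate 1, and 1 and 1 without FaDu AfaR replicate 2. In FaDu ErlR, where CD274 read highest in FaDu, edgeR called 0 higher (2.58% of all genes) and 0 lower (1.6% of all genes). DESeq2 called 1 higher and 0 lower. At an unadjusted edgeR p under 0.05 there were 6 higher and 5 lower. No share over all genes was taken at that limit, so these 2 counts have no background beside them. CMTM6, which keeps PD-L1 at the cell surface, had log2 fold changes of -0.38 ± 0.10 in FaDu AfaR (adjusted p = 0.0307) and 0.25 ± 0.10 in ErlR (adjusted p = 0.188).

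In Cal27 ErlR 17 of the 43 genes fell and 3 rose (IL6ST, PTPN1 and PTPN11), beside 15.3% lower and 12.3% higher over all genes tested, in the model in which JAK2, CD274 and PDCD1LG2 rose. JAK1, the partner kinase of JAK2 on the interferon gamma receptor, fell from 133 ± 8.92 to 80.7 ± 3.20 CPM (-0.75 ± 0.12, edgeR adjusted p = 0.00259), and the receptor chain IFNGR1 from 116 ± 18.0 to 52.7 ± 6.95 CPM (-1.16 ± 0.24, adjusted p = 0.00749). IRF1, a transcription factor induced by interferon gamma, fell by 1.26 on the log2 scale (adjusted p = 0.00439). Of the 10 interferon gamma targets, 6 fell (GBP1, GBP2, CXCL10, TAP1, PSMB9 and NLRC5) and 0 rose, with a median log2 fold change of -1.26. Without Cal27 parental replicate 2 the count of genes that fell was 10, and that of genes that rose was 1 without either Cal27 parental library or ErlR replicate 1. In Cal27 AfaR 13 rose, among them JAK1 (0.35 ± 0.12, edgeR adjusted p = 0.0451), and 8 fell, among them IL6R and SOCS2, while CD274 did not pass. Over all genes tested, 19.5% were higher and 18.2% lower there, so the share of the 43 genes that fell was near the background. Without Cal27 AfaR replicate 1 the count that rose was 6, and without parental replicate 1 it was 8.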

How the data were processed

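RNA-seq of 12 libraries (parental, AfaR and ErlR cells of FaDu and of Cal27, 2 biological replicates each) was analysed from the deposited files. Per the submitters' processing notes, reads were trimmed with Trimmomatic 0.36, aligned to GRCh38 with STAR 2.5.2b and counted with featureCounts of Subread 1.5.2. The authors deposited raw read counts for each Ensembl gene and ERCC spike-in. Per comparison they also deposited normalized values, a signal whose product with 1 factor per library gave the raw count within 0.01 in 100% of cases. Those tables were used for 1 alternative only. No deposited column was left without a sample (0 unmatched). The authors' tables were not otherwise used.

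Spike-ins were left out of library sizes. Symbols came from GENCODE release 44, which held 56948 of the 58051 gene identifiers and all 40 members, on the same chromosome. CPM were scaled by TMM. Counts were fitted per line over 6 libraries with edgeR 4.0.16 in R 4.3.3 (quasi-likelihood test, filterByExpr, Benjamini-Hochberg adjustment over 15092 genes in FaDu and 15269 in Cal27, 3 residual degrees of freedom). The fit was tested on simulated counts. Members of the segment were not tested in FaDu. The named genes are the segment's genes of fixed role lists, genes called in Cal27, FaDu exceptions, the genes nearest to the bounds and the called pathway genes. The members and lists were chosen with earlier results of these data known. Alternatives were DESeq2 1.42.0, other scalings, filters, pseudocounts, library sets, a replicate block and leaving out each library. Total gene counts of at least 16334937 per library set the precision, which is least for genes with few reads. The values of 1 pathway gene are not reported here.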

Additional observations from a re-analysis of the deposited data

Results flagged for a closer look

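For some genes of the segment every FaDu resistant library lay on one side of the parental libraries and every Cal27 resistant library on the other. The differences below are log2 ratios (0.5 CPM added) in FaDu minus those in Cal27; none was tested, because the FaDu values chose the segment. Under afatinib resistance they were higher in FaDu and lower in Cal27: 1.17 for SMARCA2, 2.76 for VLDLR, 2.81 for RLN2, 1.45 for CD274, 1.13 for RIC1, 1.12 for ERMP1, 2.71 for ENSG00000225489, 0.95 for DMAC1, 0.70 for ZDHHC21 and 0.43 for SNAPC3. Under erlotinib resistance the same held, at 1.24 for VLDLR, 2.65 for SLC1A1, 1.16 for ENSG00000225489, 1.67 for ENSG00000270372 and 2.15 for LURAP1L. VLDLR and ENSG00000225489 appear under both drugs. RLN2, SLC1A1 and both long non-coding RNAs have few reads in at least 1 of the groups compared. Of these, RLN2, SLC1A1 and ENSG00000270372 reached the level of the rule only through FaDu resistant libraries.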

How the results depend on the processing

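No called direction turned under the alternatives run; the Cal27 AfaR median, near 0, changed sign without Cal27 parental or AfaR replicate 2. Scaling by ERCC spike-ins moved the median of all genes by 0.15 in FaDu AfaR and 0.44 in FaDu ErlR on the log2 scale; the segment's medians became 0.90 and 0.99, or 0.74 and 0.54 relative to all genes. Leaving out TMM factors moved the median of all genes in FaDu AfaR by 0.12 and gave segment medians of 0.88 in FaDu AfaR and 0.51 in Cal27 ErlR. Adding 1 CPM gave 0.52 in FaDu ErlR, and members at 5 CPM or more gave 0.85 in Cal27 ErlR. With a log2 fold change over 1 also required, members called were 8 higher in Cal27 ErlR and 3 lower in Cal27 AfaR, and fitting only the 4 libraries compared gave 1 lower in Cal27 ErlR. Upper-quartile scaling gave 1 pathway gene lower in FaDu AfaR, and DESeq2 gave 1 higher in FaDu ErlR; the causes were not tested.

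Leaving out 1 library at a time, the segment's median ran from 0.65 to 0.86 in FaDu AfaR, 0.56 to 0.61 in FaDu ErlR, -0.12 to 0.04 in Cal27 AfaR and 0.53 to 0.69 in Cal27 ErlR. Members called higher ran from 3 to 6 and lower from 4 to 5 in Cal27 AfaR, and from 13 to 21 and 1 to 2 in Cal27 ErlR, the 13 and the 1 without Cal27 parental replicate 2. Pathway genes called higher and lower ran from 0 to 9 and 0 to 2 in FaDu AfaR, 0 to 2 and 0 to 0 in FaDu ErlR, 6 to 12 and 6 to 11 in Cal27 AfaR, and 1 to 2 and 10 to 18 in Cal27 ErlR. The 0 in FaDu AfaR came without FaDu parental replicate 1, and the 2 in FaDu ErlR without FaDu ErlR replicate 1.

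Replicate numbers did not pair the libraries: replicate differences correlated between groups at 0.22, -0.14 and -0.16 in FaDu and -0.32, 0.16 and -0.07 in Cal27. With a replicate block, members called for Cal27 AfaR were 4 higher and 5 lower, those for Cal27 ErlR 20 higher and 3 lower, and pathway genes 6 and 2 in FaDu AfaR, 0 and 0 in FaDu ErlR, 12 and 9 in Cal27 AfaR and 18 lower with 2 higher in Cal27 ErlR. With 2 libraries per group, genes with few reads, such as RLN2 and SLC1A1, have wide intervals.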
